A study of Mus musculus with 22 samples.

Results

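The 10 genes described here are Rasgrp2, Rap1b, Tln1, Fermt3, Skap2, Fyb, Stim1, Orai1, Atp2a3 and Ano6. They encode the machinery that switches on integrins from inside the platelet, lets calcium in when stores are emptied, and exposes phosphatidylserine on the surface. They were chosen by name as a pathway set, with earlier results of these data known, so counts of them are descriptive. All 10 were found among the 9326 genes of the megakaryocyte tables and the 12611 platelet genes with an adjusted p. None was thus lost to a filter on low values. The study compared RNA of control mice with that of Pf4Cre-Srsf3fl/fl mice, whose Cre, under the promoter of the platelet factor Pf4, removes the splicing factor gene Srsf3 from megakaryocytes. All mice were adult. Megakaryocytes from bone marrow, which release platelets, were sorted by CD41 and ploidy into 8N cells and cells of 16N or higher, written 16N-plus here, and sorted cells were pooled into samples. There were 3 samples each of 8N and 16N-plus megakaryocytes from Cre-negative controls and 3 of each from knockouts, all labelled C57BL/6. Platelets were taken from 3 samples of wild type mice, 3 of Cre-negative controls and 4 of knockouts, with strain labels that run from C57BL/7 to C57BL/16, a different one for each sample. Cre is carried by the knockouts and not by the controls, so the transgene and the loss of Srsf3 cannot be told apart, and the labels do not say whether the Cre-negative controls carry the floxed alleles. Whether the samples of a group are separate animals is not given either, so p-values rest on spread between samples that may be technical. The degrees of freedom implied for the megakaryocyte tests, 339.5, far exceed the number of samples. Each gene's error there thus rests mainly on spread shared across genes, not on its own spread between these samples.

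The deposited values are comparisons between groups, and no library's own value was used. Each gene is therefore given by its log2 fold change with a standard error (SE) or a 95% interval. The megakaryocyte SE is not among the authors' values: wherever it stands beside one, it was computed here from their fold change and F statistic. All 95% intervals were also computed here, while the platelet SE is the authors' own. A gene was called at an adjusted p under 0.05. Here a positive value means more RNA in the knockout, or in 16N-plus cells; no label of the tables states which way they run. It was read this way because the megakaryocyte markers are then higher in 16N-plus cells, and the platelet sign because the knockout platelets then resemble the knockout megakaryocytes. The opposite reading would turn every sign of the megakaryocyte or of the platelet values, while sizes, p-values and the contrasts between genes within a table would stay. In bulk RNA, fewer cells of a type and less RNA per cell cannot be told apart, and every fold change is relative to the rest of its library.

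Integrin alphaIIb beta3 rests in a closed form on circulating platelets. Agonists raise cytosolic calcium, the exchange factor encoded by Rasgrp2 loads the small GTPase Rap1 with GTP, and Rap1 brings talin to the integrin tail, where talin and kindlin-3 together open the receptor for fibrinogen. The calcium comes first from the endoplasmic reticulum. Emptying of that store is sensed by STIM1, which opens the ORAI1 channel in the plasma membrane, and SERCA pumps such as the product of Atp2a3 refill the store. A sustained rise of calcium activates the scramblase encoded by Ano6, which moves phosphatidylserine to the outer leaflet, where clotting factor complexes assemble.

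All 12 megakaryocyte marker genes were present in the megakaryocyte tables. Per the authors' deposited table, 11 of the 12 were called higher in 16N-plus than in 8N control cells. Over the 12 the median was 1.07 on the log2 scale. This direction checks neither identity nor the sign, because the sign was read from it. Under either reading, the 11 called markers moved the same way. In platelets, per the authors' deposited table, 11 of the 12 were tested, with mean normalised counts from 288 for Gp1ba to 255819 for Ppbp. Srsf3 itself was not called in megakaryocytes. With ploidies combined its log2 fold change was 0.38 (SE 0.17) per the authors' deposited table (edgeR unadjusted p = 0.028, adjusted p = 0.28). It was at 0.33 in 8N and 0.43 in 16N-plus cells. Under the sign used here these values lie toward more Srsf3 RNA in the knockout, which is not the direction of a loss. None was called, so they check neither the deletion nor the sign. Markers of other blood cells moved between the same libraries. In the control ploidy step 9 of 14 macrophage markers and 5 of 13 neutrophil markers were lower in 16N-plus cells and 0 were higher, with medians of -1.08 and -0.51. In the genotype comparison of 16N-plus cells 2 of 13 neutrophil markers were higher in the knockout and 0 of 14 macrophage markers were called. In platelets 8 of 9 tested red cell markers were higher in the knockout, with a median of 4.67. Several of the 10 genes are also expressed in leukocytes; the part of other cells in the results below was not tested.

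Positions are given on GRCm38, the mouse assembly named mm10 in the submitters' processing notes. The 5 called in a megakaryocyte genotype comparison were Rasgrp2 (chromosome 19, 6399340 to 6415216, plus strand), Rap1b (chromosome 10, 117813871 to 117846035, minus strand), Tln1 (chromosome 4, 43531519 to 43562691, minus strand), Fermt3 (chromosome 19, 6998958 to 7019469, minus strand) and Fyb (chromosome 15, 6522853 to 6663313, plus strand). Gene structure varied widely: the longest coding transcript had 57 exons in Tln1 and 2 in Orai1. In 8 of the 10 genes no stretch of 50 bases of that transcript occurred in an annotated transcript of another gene. The paralogue Rap1a thus shared none with Rap1b at this length, while Skap2 shared 1.56% of its stretches with Gm9240 and Atp2a3 shared 4 of 4557 with Atp2a1. Exon bases of 6 of the genes overlap a gene on the opposite strand, Creb3 in the case of Tln1 and Trpt1 in the case of Fermt3. Exon bases of Fyb also overlap a gene on the same strand, the transcribed processed pseudogene Gm7666. The megakaryocyte libraries were stranded, but whether strand was used in counting is not given in the sources used here. With ploidies combined, Creb3 stood at 0.48 (SE 0.15) per the authors' deposited table, opposite in sign to Tln1. In platelets Creb3 was at 0.79 (SE 0.30; DESeq2 adjusted p = 0.016) per the authors' deposited table, the same sign as Tln1. A130051J06Rik, which overlaps Ano6 on the opposite strand, was at -4.52 (SE 0.85; DESeq2 adjusted p = 3.3e-07) in platelets per the authors' deposited table, the same sign as Ano6.

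Because these genes had the same sign in megakaryocytes, the windows from 250 bases before to 50 bases after the annotated start are shown for the 4 with the smallest genotype p, from RefSeq on GRCm38.p6, read 5′ to 3′ in the direction of the gene. Capitals mark matches to AGATAA (a word bound by GATA factors), CCGGAA (bound by ETS factors) or TGTGGT (bound by RUNX factors), searched on both strands; no matches overlapped. Rasgrp2 has 2 annotated starts and both windows are given.
Rasgrp2, chr19:6399625-6399924, plus strand: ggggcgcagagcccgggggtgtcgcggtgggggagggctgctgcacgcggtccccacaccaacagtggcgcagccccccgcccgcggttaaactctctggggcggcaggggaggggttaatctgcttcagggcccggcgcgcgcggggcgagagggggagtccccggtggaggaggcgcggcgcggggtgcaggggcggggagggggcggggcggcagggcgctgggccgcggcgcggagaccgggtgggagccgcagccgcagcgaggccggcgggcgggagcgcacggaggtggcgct
Rasgrp2, chr19:6401455-6401754, plus strand: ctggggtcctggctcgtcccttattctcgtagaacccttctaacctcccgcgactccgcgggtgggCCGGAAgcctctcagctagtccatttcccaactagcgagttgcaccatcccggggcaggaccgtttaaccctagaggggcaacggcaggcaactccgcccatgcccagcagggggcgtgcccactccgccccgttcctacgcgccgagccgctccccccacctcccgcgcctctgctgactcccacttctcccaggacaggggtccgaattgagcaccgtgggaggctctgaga
Rap1b, chr10:117845925-117846224, minus strand: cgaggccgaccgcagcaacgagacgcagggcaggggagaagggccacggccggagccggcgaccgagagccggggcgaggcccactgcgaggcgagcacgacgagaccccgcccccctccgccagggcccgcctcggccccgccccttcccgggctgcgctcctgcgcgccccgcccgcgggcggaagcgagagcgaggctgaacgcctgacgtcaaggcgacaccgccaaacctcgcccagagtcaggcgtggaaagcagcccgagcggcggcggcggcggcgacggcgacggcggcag
Tln1, chr4:43562534-43562833, minus strand: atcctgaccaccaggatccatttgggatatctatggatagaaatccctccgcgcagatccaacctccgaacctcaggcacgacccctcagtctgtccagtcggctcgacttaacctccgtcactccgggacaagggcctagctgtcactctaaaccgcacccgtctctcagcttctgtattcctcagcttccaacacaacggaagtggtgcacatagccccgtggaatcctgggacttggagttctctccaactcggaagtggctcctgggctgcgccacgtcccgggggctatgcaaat
Fermt3, chr19:7019420-7019719, minus strand: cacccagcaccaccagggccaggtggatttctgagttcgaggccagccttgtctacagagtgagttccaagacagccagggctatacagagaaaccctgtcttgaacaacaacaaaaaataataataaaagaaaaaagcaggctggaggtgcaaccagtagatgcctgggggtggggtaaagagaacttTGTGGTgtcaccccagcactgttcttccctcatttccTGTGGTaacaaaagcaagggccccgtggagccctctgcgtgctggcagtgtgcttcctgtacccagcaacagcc

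The Fermt3 window held 2 copies of TGTGGT, beginning 61 and 24 bases before the start. The second Rasgrp2 window held 1 CCGGAA, beginning 184 bases before it, and the windows of Rap1b and Tln1 held none of these words. Over the 11 windows of the 10 genes, AGATAA was found in 1 (Fyb), CCGGAA in 3 (Rasgrp2, Stim1 and Atp2a3) and TGTGGT in 2 (Fermt3 and Atp2a3). Of all 32851 windows, 11.2% held AGATAA, 14.9% held CCGGAA and 16.8% held TGTGGT. Base composition of the windows ranged from 42.0% G and C in Fyb to 80% in the first Rasgrp2 window.

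The first comparison asks how RNA of these genes changes as control megakaryocytes gain ploidy. In control cells 5 of the 10 genes were called higher in 16N-plus than in 8N cells and 0 lower per the authors' deposited table, where 4.74% of all genes were called higher and 2.51% lower. The 5 were the exchange factor gene Rasgrp2, its GTPase target Rap1b, both integrin tail binders Tln1 and Fermt3, and the adapter gene Skap2. All 10 log2 fold changes were above 0, with a median of 0.75, whereas 36.2% of all genes were above 0 and their median was -0.11. Macrophage markers were lower in the same comparison, as given above.

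Among the genes of the Rap1 switch, Rasgrp2 rose the most, by 1.25 on the log2 scale (SE 0.28), or 2.38-fold, per the authors' deposited table (edgeR adjusted p = 0.00050). Rap1b, the main Rap1 isoform of platelets, rose by 0.89 (SE 0.20; edgeR adjusted p = 0.00061) per the authors' deposited table. At the integrin tail, Tln1 rose by 0.78 with the smallest error of the set (SE 0.10; edgeR adjusted p = 3.9e-12) per the authors' deposited table. Fermt3, which encodes kindlin-3, rose by 0.74 (SE 0.16; edgeR adjusted p = 0.00022) there. The intervals of Rap1b, Tln1 and Fermt3 overlapped widely. Of the adapters that link signalling to the integrin, Skap2 rose by 0.76 (SE 0.22; edgeR adjusted p = 0.013) per the authors' deposited table. Its binding partner Fyb, the gene of the adapter ADAP, was at 0.78 (SE 0.28) per the authors' deposited table and missed the threshold (edgeR adjusted p = 0.074).

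None of the calcium and scramblase genes was called in this step. Atp2a3 was at 0.50 (95% interval 0.10 to 0.89; edgeR adjusted p = 0.14) per the authors' deposited table. The scramblase gene Ano6 was at 0.44 (-0.12 to 1.01), and Stim1, the store sensor, at 0.40 (-0.11 to 0.91) in the same deposited table of the authors. Orai1, the channel gene, was at 0.17 per the authors' deposited table, with a mean log2 CPM (a count scaled to library size) of 5.52, where the lowest of all genes was 4.23. Both Fyb (edgeR values, adjusted p = 0.030) and Atp2a3 (0.046) passed when fold changes were centred on the median gene, which brought the count to 7 of 10.

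**Figure D1:**
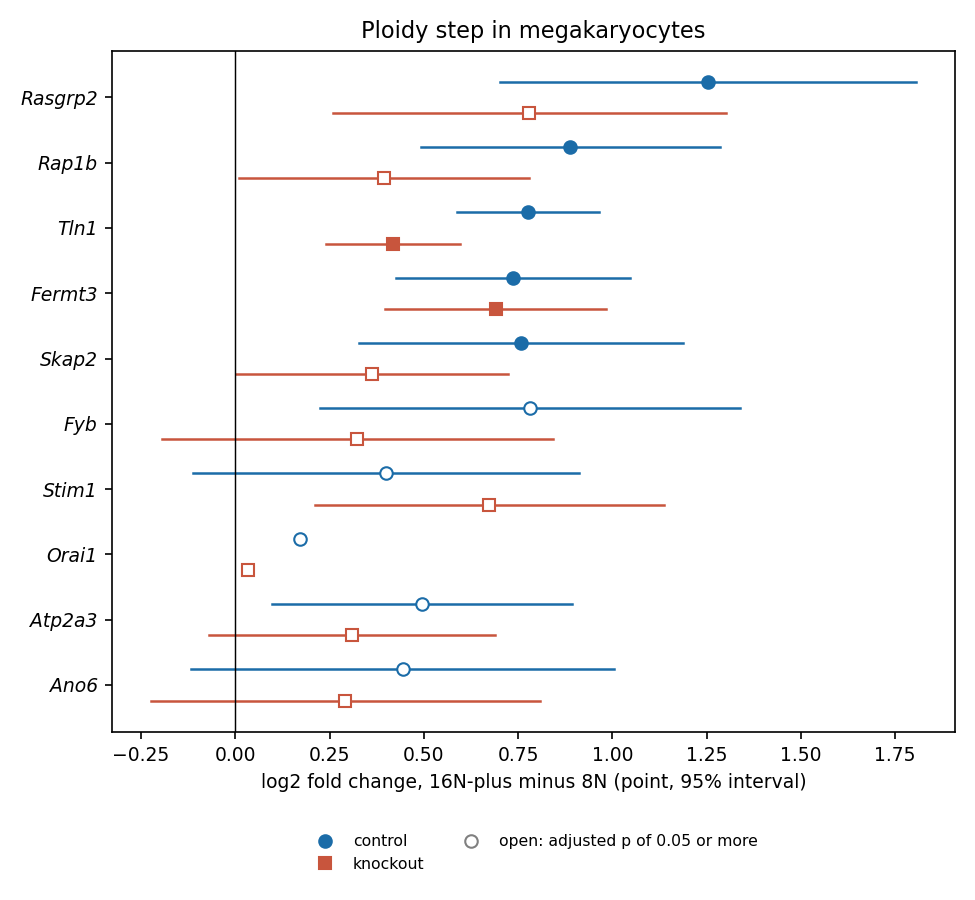
Log2 fold change of each gene between 16N-plus and 8N megakaryocytes, in controls (circles) and knockouts (squares), with 95% intervals from the computed SE; filled symbols had an adjusted p under 0.05, and no interval is drawn for Orai1, whose F statistic was under 0.5. All 20 points lie above 0, 5 filled in controls and 2 in knockouts.

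In knockout megakaryocytes the same step was called for 2 of the 10 genes, both higher, per the authors' deposited table, against 2.1% of all genes called higher and 1.21% lower. Fermt3 rose by 0.69 (SE 0.15; edgeR adjusted p = 0.00060) per the authors' deposited table, close to its 0.74 in controls. Tln1 rose by 0.42 (SE 0.09; edgeR adjusted p = 0.00059) there, against 0.78 in controls. Rasgrp2 was at 0.78 (95% interval 0.26 to 1.30; edgeR adjusted p = 0.086), Rap1b at 0.39 (0.01 to 0.78) and Skap2 at 0.36 (0.00 to 0.72) per the authors' deposited table. Stim1 was at 0.67 (95% interval 0.21 to 1.14, edgeR adjusted p = 0.10) per the authors' deposited table. It was the only gene of the 10 whose knockout step was larger than its control step. The difference between these steps, 0.27 (-0.42 to 0.96), was not called. All 10 values were again above 0 (median 0.38), where 42.6% of all genes were. In this step 3 of 5 tested B cell and plasma cell markers were higher in 16N-plus cells and 7 of 14 macrophage markers lower. In the same libraries 3 of 6 T and NK cell markers were lower, 1 of 13 neutrophil markers was higher, and 7 of 12 megakaryocyte markers were higher with a median of 0.68.

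The next comparison asks what loss of Srsf3 does at each ploidy. In 8N cells 1 of the 10 genes was called, Tln1, lower in the knockout; the authors' deposited table called 1.14% of all genes lower and 0.3% higher. All 10 values were below 0, where 48.3% of all genes were. Tln1 fell by 0.30 (95% interval -0.47 to -0.13; edgeR adjusted p = 0.034) per the authors' deposited table. The other 9 did not pass, and their values ran from -0.56 for Rasgrp2 (-1.07 to -0.05) to -0.13 for Skap2 (-0.46 to 0.20) per the authors' deposited table. These intervals leave room for a fall of more than 1.5-fold in some genes and for no change in others. In the same libraries 3 of 13 neutrophil markers and 2 of 5 B cell and plasma cell markers were lower in the knockout, 2 of 6 T and NK cell markers were higher, and 5 of 12 megakaryocyte markers were lower.

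In 16N-plus cells 3 of the 10 genes were called lower in the knockout and 0 higher, where the authors' deposited table called 3.12% of all genes lower and 0.386% higher. All 10 values were below 0, with a median of -0.50, against 39.1% of all genes below 0 and a median of 0.07. Megakaryocyte markers were lower in the same libraries, 7 of 12 called, with a median of -0.84. Rasgrp2 fell by 1.03 (SE 0.29; edgeR adjusted p = 0.013), or 2.05-fold, per the authors' deposited table. Its target Rap1b fell by 0.75 (SE 0.21; edgeR adjusted p = 0.012), and Tln1 by 0.66 (SE 0.10; edgeR adjusted p = 2.8e-08), per the authors' deposited table. Those 3 encode an exchange factor, a GTPase and talin of the route from calcium to the integrin tail. Which genes passed also turned on their errors: Fyb stood lower than Rap1b and Tln1 but missed with a larger SE (0.29). Rasa3, whose product turns Rap1 off, was also called lower, at -1.95, as given below.

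The remaining genes of integrin activation did not pass in 16N-plus cells. Fyb was at -0.86 (95% interval -1.43 to -0.28; edgeR adjusted p = 0.083) per the authors' deposited table, and it passed when fold changes were centred on the median gene. Skap2 was at -0.52 (-0.98 to -0.07) and Fermt3 at -0.37 (-0.68 to -0.06) per the authors' deposited table. Of the calcium genes, Atp2a3 was at -0.48 (-0.89 to -0.08), Orai1 at -0.34 (-0.85 to 0.17) and Stim1 at -0.03 per the authors' deposited table. Ano6 was at -0.44 (-1.02 to 0.13) there. The 16N-plus control libraries enter both this comparison and the control ploidy step with opposite sign, so the 2 sets of values are not independent.

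**Figure D2:**
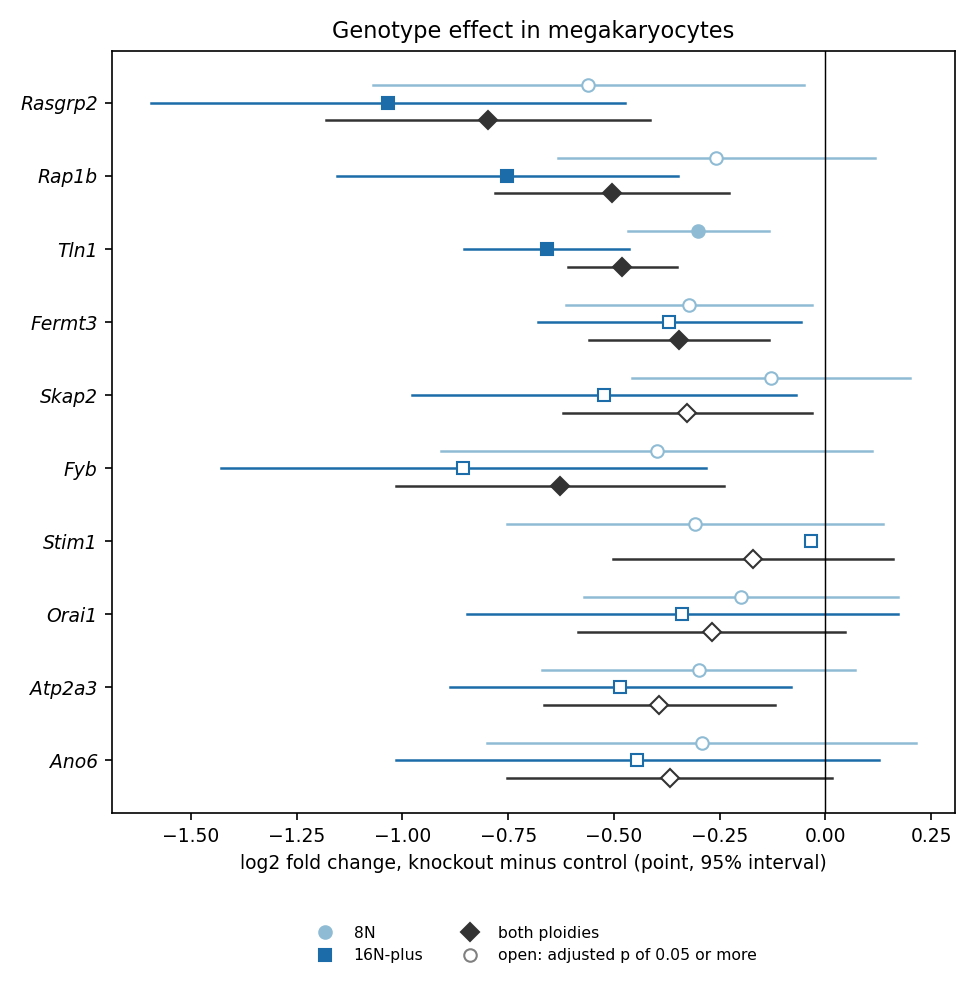
Log2 fold change of each gene between knockout and control megakaryocytes in 8N cells (circles), 16N-plus cells (squares) and both ploidies combined (diamonds), with 95% intervals; filled symbols had an adjusted p under 0.05, and no interval is drawn for Stim1 in 16N-plus cells, whose F statistic was under 0.5. Every point lies below 0, and 1, 3 and 5 of them are filled.

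With both ploidies combined, 5 of the 10 genes were called lower and 0 higher, where 3.57% of all genes were called lower and 0.622% higher per the authors' deposited table. All 10 values were below 0 with a median of -0.38, against 39.9% of all genes. Megakaryocyte markers were lower in the same libraries, 8 of 12 called, with a median of -0.63, as were 2 of 12 red cell markers, 1 of 5 B cell and plasma cell markers and 1 of 14 macrophage markers. Tln1 fell by 0.48 (SE 0.07; edgeR adjusted p = 4.5e-10), Rasgrp2 by 0.80 (SE 0.20; edgeR adjusted p = 0.0024) and Rap1b by 0.50 (SE 0.14; edgeR adjusted p = 0.014) per the authors' deposited table. Fyb, at -0.63 (SE 0.20; edgeR adjusted p = 0.042), and Fermt3, at -0.35 (SE 0.11; edgeR adjusted p = 0.040), passed narrowly per the authors' deposited table. At an adjusted p under 0.01, Tln1 and Rasgrp2 alone remained. Atp2a3 was at -0.39 (SE 0.14; edgeR adjusted p = 0.099) per the authors' deposited table and passed after centring on the median gene. Skap2, Ano6, Orai1 and Stim1 were at -0.33, -0.37, -0.27 and -0.17 per the authors' deposited table, none past the threshold. This table equals the mean of the 8N and 16N-plus comparisons, so it adds precision rather than further samples.

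Whether the genotype effect differed between ploidies was computed from the difference of both log2 fold changes, with a normal approximation that takes the gates as independent. None of the 10 genes was called by this test (0 of 10, against 0.718% of all genes), and 1 had an unadjusted p under 0.05, against 7.5% of all genes. That gene was Tln1, whose effect was lower in 16N-plus cells by a difference of -0.36 (95% interval -0.62 to -0.10; adjusted p = 0.26 on the authors' edgeR values). Rap1b differed by -0.49 (-1.04 to 0.06) and Rasgrp2 by -0.47 (-1.23 to 0.28). Fermt3 differed by -0.05 (-0.47 to 0.38), the smallest difference of the 10. A larger effect at 16N-plus was therefore not shown for any of them, and the intervals do not show that the effects were equal.

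Set out relative to control 8N cells, the group values trace how far each gene rose. Rasgrp2 stood 1.25 log2 units above control 8N cells in control 16N-plus cells, 0.56 below in knockout 8N cells (-0.56) and 0.22 above in knockout 16N-plus cells. Tln1 stood at 0.78, -0.30 and 0.12 in the same order, and Rap1b at 0.89, -0.26 and 0.14. Fermt3 stood at 0.74, -0.32 and 0.37. In each of these 4 genes, as in all 10, the highest group was control 16N-plus and the lowest was knockout 8N. That order follows from the signs already given, with both ploidy steps positive and both genotype values negative, so it adds no further result. The share of all genes with this order was not computed. For Fyb (-0.07) and Orai1 (-0.17) the knockout 16N-plus value lay below control 8N cells, though neither gene passed at a single ploidy.

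The genes whose pattern was most like that of Tln1 over the control ploidy step and both genotype comparisons, by Euclidean distance among 9325 other genes, were Gata1 (distance 0.022), Hexa (0.056), St3gal1 (0.067) and Sla (0.074). Those nearest to Rasgrp2 were Gp5 (0.053), Nlrx1 (0.068), Mpig6b (0.081) and Epb41 (0.11). Gata1 encodes a megakaryocyte and erythroid transcription factor, and Gp5 and Mpig6b encode platelet surface receptors. The likeness rests on 3 comparisons of 4 groups and is a description of these libraries.

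Platelets were measured by a different method, amplicon panels made from 10 ng of RNA, so levels were not compared with megakaryocytes. Which of the control groups entered the authors' platelet comparison is not given in the sources used here. Per the authors' deposited table, 9 of the 10 genes were called, 7 lower and 2 higher in knockout platelets, where 53.2% of all tested genes were called, 25% lower and 28.2% higher. The median of the 10 was -1.70, against 0.02 over all tested genes and -1.31 over 11 megakaryocyte markers. Red cell markers were higher in the same libraries, as given above.

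Orai1 fell the most. Its log2 fold change was -3.96 (SE 0.28; the authors' DESeq2 adjusted p = 2.8e-45) per the authors' deposited table, a 15.6-fold difference, on a mean normalised count of 99.9 over libraries, the lowest of the 10. Rap1b was at -3.10 (SE 0.14; DESeq2 adjusted p = 7.9e-102), an 8.55-fold difference, per the authors' deposited table. Fyb was at -2.53 (SE 0.13; DESeq2 adjusted p = 3.1e-82) there. The 95% intervals of these 3 genes did not overlap one another or those of the other 7.

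A second tier lay close together. Skap2 was at -1.88 (SE 0.19; DESeq2 adjusted p = 4.3e-22), the scramblase gene Ano6 at -1.77 (SE 0.22; DESeq2 adjusted p = 3.6e-15) and Rasgrp2 at -1.62 (SE 0.16; DESeq2 adjusted p = 5.6e-22) per the authors' deposited table. Their 95% intervals overlapped, so no order is given among them. Centred on the median of the megakaryocyte markers, Skap2 still passed while Rasgrp2 was at -0.31 (adjusted p = 0.085, by a normal approximation) and Ano6 at -0.47 (adjusted p = 0.052).

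The store genes lay closer to 0. Atp2a3, the SERCA pump gene, was at -0.56 (SE 0.12; DESeq2 adjusted p = 7.6e-06) per the authors' deposited table, and this sign turned, to 0.75, when centred on the markers. Stim1 was at -0.31 (95% interval -0.74 to 0.11; DESeq2 adjusted p = 0.23) per the authors' deposited table and did not pass; centred on the markers it was at 1.00. The channel gene and its sensor thus differed: the intervals of Orai1 and Stim1 lay far apart.

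Tln1 and Fermt3, the genes of both integrin tail binders, were higher in knockout platelets. Tln1 was at 0.44 (SE 0.10; DESeq2 adjusted p = 1.7e-05) and Fermt3 at 0.70 (SE 0.10; DESeq2 adjusted p = 1.2e-11) per the authors' deposited table. In megakaryocytes both had been called lower with ploidies combined. The contrast within the platelet table does not depend on the reading of its sign: Tln1 and Fermt3 moved against the 7 other called genes, under either reading. Under the opposite platelet sign Tln1 and Fermt3 would share the direction seen in megakaryocytes and the other 7 would oppose it. The contrast does depend on centring. Centred on the megakaryocyte markers, Atp2a3 and Stim1 moved to the side of Tln1 and Fermt3, and Rasgrp2 and Ano6 no longer passed.

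**Figure D3:**
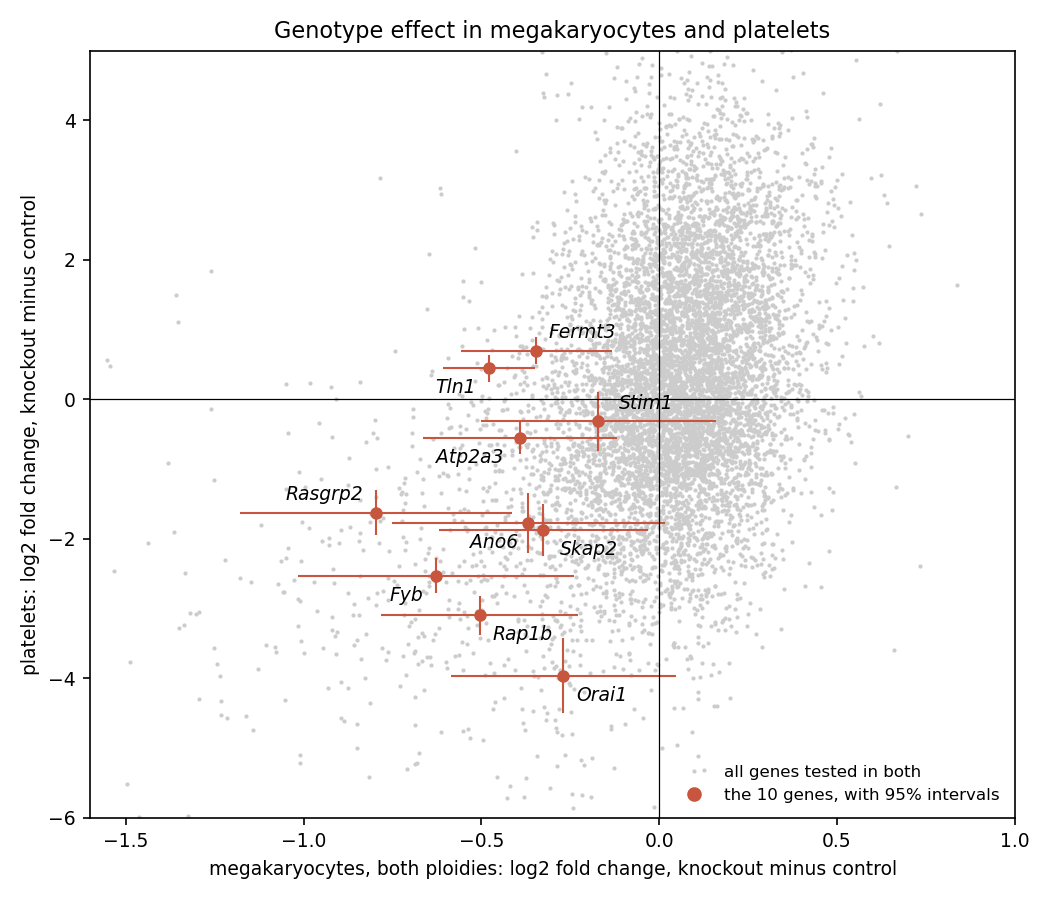
Log2 fold change, knockout minus control, in megakaryocytes with ploidies combined (horizontal) and in platelets (vertical), for the 10 genes with 95% intervals and, in grey, the 8163 genes tested in both, of which 102 lie outside the axes. Tln1 and Fermt3 lie above 0 in platelets and the other 8 below; centred on the megakaryocyte markers, Atp2a3 and Stim1 would also lie above 0.

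Other genes of the pathway were taken from 4 lists holding 63 genes. In control megakaryocytes 10 of 54 tested rose with ploidy and 0 fell, against 4.74% and 2.51% of all genes, per the authors' deposited table. In the knockout 3 rose, against 2.1% of all genes. In the genotype comparison of 16N-plus cells 8 of 54 were lower and 0 higher, against 3.12% and 0.386% of all genes. The median over the 54 was -0.19. In 8N cells 3 were lower, against 1.14% of all genes, and with ploidies combined 9 were, against 3.57%.

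Of the 12 tested genes of the Rap1 switch, 3 were lower and 0 higher in knockout 16N-plus cells. The shares over all genes were 3.12% and 0.386%, and the median of the 12 was 0.03. Rasa3, which encodes a GTPase-activating protein that turns Rap1 off, rose by 1.52 (SE 0.23) with ploidy in controls and fell by 1.95 (SE 0.24; edgeR adjusted p = 1.8e-12) in knockout 16N-plus cells per the authors' deposited tables. Rap1a, the other Rap1 isoform, fell by 1.13 (SE 0.33; edgeR adjusted p = 0.020) and the exchange factor gene Rasgrp3 by 1.08 (SE 0.28; edgeR adjusted p = 0.0057) in knockout 16N-plus cells per the authors' deposited table. The other exchange factor genes and GTPase-activating protein genes of the list did not pass, among them Rapgef2 at 0.61 and Sipa1 at 0.35 per the authors' deposited table. In 8N cells Rasa3 was the gene of this list that was called, at -0.93 (SE 0.22) per the authors' deposited table. In platelets 7 of 12 genes of this list were lower and 3 higher, where 25% of all tested genes were lower and 28.2% higher. Among them were Rap2b at -5.68 (SE 0.58), Rasgrp3 at -3.14 (SE 0.38), Rasa3 at -2.06 (SE 0.20) and Rap1a at -1.99 (SE 0.33), with Rapgef1 at 3.27 (SE 0.28), per the authors' deposited table.

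Around talin and kindlin, Parvb, the gene of beta-parvin, fell by 1.47 (SE 0.28; edgeR adjusted p = 3.6e-05) and Flna, the gene of filamin A, which competes with talin for the integrin tail, by 1.09 (SE 0.11; edgeR adjusted p = 1.1e-17) in knockout 16N-plus cells per the authors' deposited table. Both were also called lower in 8N cells, at -1.03 (SE 0.25) and -0.76 (SE 0.10) per the authors' deposited table. Apbb1ip, the gene of the Rap1 effector RIAM, was at 0.15 in 16N-plus cells per the authors' deposited table and did not pass. In platelets 3 of 18 genes of this list were lower and 4 higher per the authors' deposited table. There 25% of all tested genes were lower and 28.2% higher. Rsu1 was at -2.04 (SE 0.20), Lims1 at -1.55 (SE 0.13) and Parvb at -1.15 (SE 0.18), while Dok2 was at 2.96 (SE 0.24) and Pip5k1c at 2.36 (SE 0.28), per the authors' deposited table. Flna, at 0.18 (SE 0.13), did not pass there.

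Among the calcium genes, Itpr2, an IP3 receptor of the store, fell by 0.88 (SE 0.23, edgeR adjusted p = 0.0057) in knockout 16N-plus cells per the authors' deposited table. It was the 1 gene of 18 tested that was called, where 3.12% of all genes were called lower and 0.386% higher. In platelets 8 of 19 were lower and 7 higher, where 25% of all tested genes were lower and 28.2% higher. The channel paralogue Orai3 was at -3.86 (SE 0.43; DESeq2 adjusted p = 4.1e-18) per the authors' deposited table, near the -3.96 of Orai1, while Orai2 was at 0.49 (SE 0.24) and did not pass. The widespread SERCA isoform gene Atp2a2 was at -2.21 (SE 0.27) per the authors' deposited table, lower than Atp2a3 at -0.56, and their 95% intervals did not overlap. Higher genes included Plcb3 at 6.28 (SE 0.50), Calr, which encodes a calcium-binding chaperone of the store, at 4.04 (SE 0.19), and Atp2b4, a plasma membrane calcium pump also made in red cells, at 5.87 (SE 1.12), per the authors' deposited table.

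For phosphatidylserine, Atp8a1, the gene of a flippase that moves the lipid inward, fell by 1.06 (SE 0.28; edgeR adjusted p = 0.0090) and the calpain gene Capn2 by 1.39 (SE 0.23; edgeR adjusted p = 3.8e-07) in knockout 16N-plus cells per the authors' deposited table. In platelets Atp8a1 was at -3.40 (SE 0.19) and Ppif, the gene of the mitochondrial pore regulator cyclophilin D, at -1.87 (SE 0.28) per the authors' deposited table, beside Ano6 at -1.77. Of the 9 tested genes of this list 4 were lower and 1 higher in platelets, where 25% of all tested genes were lower and 28.2% higher. The flippase gene Atp11a at 1.23 (SE 0.97) and the flippase subunit gene Tmem30a at 0.39 (SE 0.30) did not pass per the authors' deposited table. Capn2 was at 0.23 (SE 0.12) in platelets per the authors' deposited table and did not pass.

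**Figure D4:**
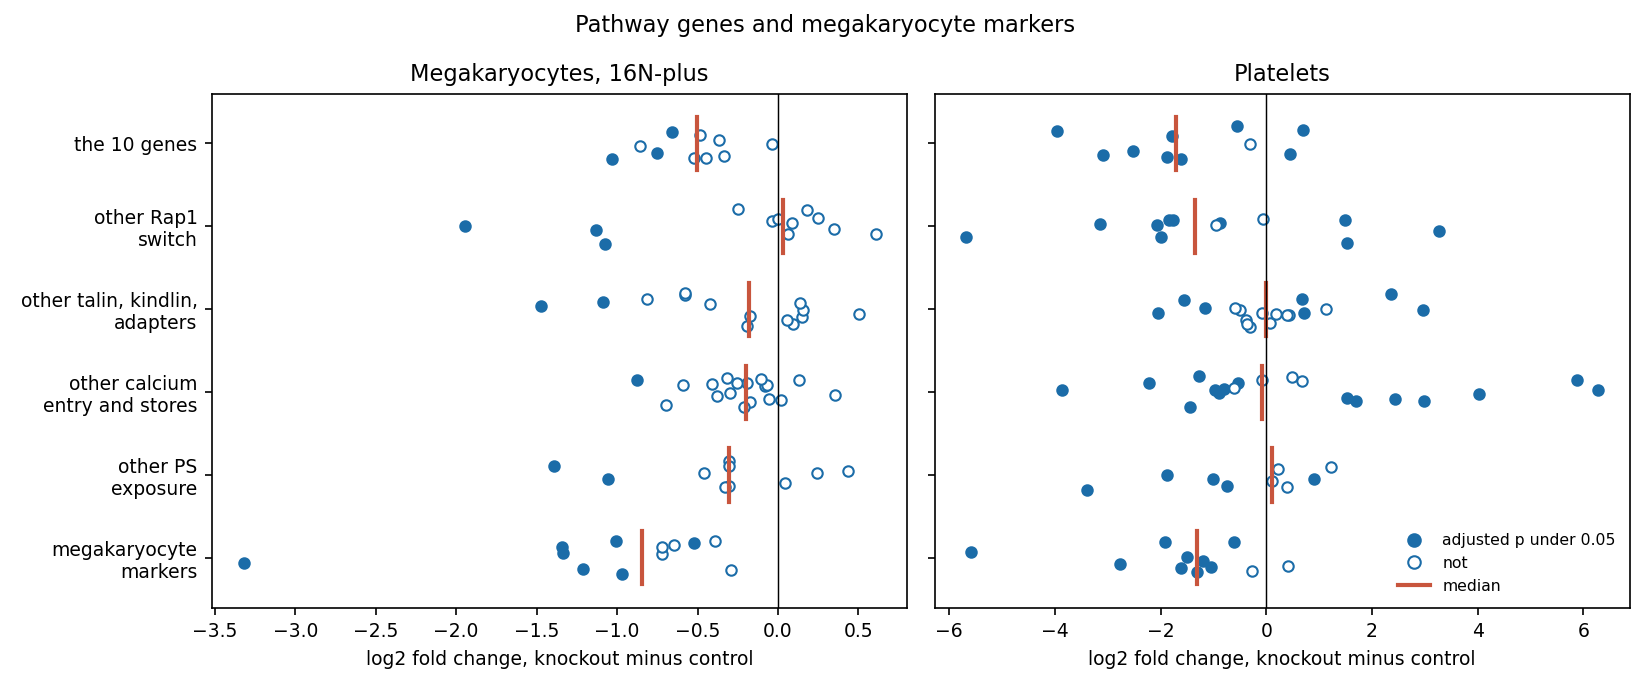
Log2 fold change, knockout minus control, of the 10 genes, of the other pathway genes in 4 lists (PS, phosphatidylserine) and of the megakaryocyte markers, in 16N-plus megakaryocytes (left) and platelets (right; the horizontal scales differ). Each point is a gene, filled at an adjusted p under 0.05, and red bars are medians: -0.50 and -1.70 for the 10 genes against -0.84 and -1.31 for the markers.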

How the data were processed

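The members and gene lists were chosen with earlier results of these data known. Per the submitters' processing notes, reads were handled with STAR, Trimmomatic, featureCounts, Subread, Picard, DESeq2 and edgeR on mm10; versions, roles and filters are not given in the sources used here. Per the file headers, the 5 deposited megakaryocyte tables are edgeR quasi-likelihood results for the same 9326 genes, giving the log2 fold change, mean log2 CPM, F score, p-value and adjusted p. Per the file headers, the deposited platelet table is DESeq2 results, giving a signal (counts scaled by size factors and averaged), the log2 fold change with SE, a score, the p-value and, for 12611 rows, an adjusted p. The authors' tests are the main ones. Depth per library is unknown.

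Computed here with Python 3.11.15, pandas 2.3.3, NumPy 2.4.6 and SciPy 1.17.1: symbols from GENCODE M21 (9300 of 9326 IDs matched), the megakaryocyte SE (size of the log2 fold change over the root of F, unstable where F was under 0.5), 95% intervals (1.96 SE), and the genotype by ploidy difference with Benjamini-Hochberg adjustment over 9325 genes, its SE taken from the ploidy tables where F was under 0.5. Centred p-values used the 339.5 denominator degrees of freedom that F and p imply; genes with F under 0.5 kept their p. The last and the centring were tested on simulated data. All 10 members were named; of the other pathway genes, called ones, at most 6 of largest change per list and comparison. Atp2a2, Orai2, Apbb1ip, Rapgef2, Sipa1, Sipa1l1, Rap1gap2, Atp11a, Tmem30a, Flna and Capn2 in platelets or megakaryocytes were named after their values were seen. So were the overlapping genes Creb3 and A130051J06Rik. Alternatives were other thresholds, centring on the median gene or the markers, genes tested in both data types, and no filter.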

Additional observations from a re-analysis of the deposited data

How the results depend on the processing

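The direction of all 10 genes in all 7 comparisons was kept after centring on the median gene, whose log2 shift was between -0.11 and 0.07. It brought 4 further calls: Fyb and Atp2a3 in the control ploidy step, Fyb in 16N-plus cells and Atp2a3 with ploidies combined. Over all genes it called 557 higher and 124 lower in the control step, against 442 and 234 as deposited, and 234 and 89 in the knockout step, against 196 and 113. At an adjusted p under 0.01 the members called were 0 in 8N cells, 1 in 16N-plus cells and 2 with ploidies combined, against 1, 3 and 5. Over all genes the same threshold called 405 in the control step, 176 in the knockout step, 81 in 8N cells, 259 with ploidies combined and 44 for the genotype by ploidy difference, against 676, 309, 134, 391 and 67. An adjusted p under 0.10, genes tested in both data types and, for platelets, no filter kept every member count within 1.5 times. Centred on the megakaryocyte markers, a setting chosen after seeing the data, platelet values of Atp2a3 and Stim1 turned to 0.75 and 1.00, Rasgrp2 and Ano6 no longer passed, and 4 members were higher and 4 lower; over all genes 6579 were higher and 1375 lower, against 3553 and 3154. No paired analysis was possible because the tables used hold no values per library, and leaving out a replicate was not run for the same reason. The megakaryocyte SE sets the limit: its median was 0.16 to 0.26 over the 5 tables.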
